A study of Canis lupus familiaris with 23 samples.

Results

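Gene expression in normal canine kidney was compared with that of normal liver and lymph node. The kidney samples were chosen by their labels alone (tissue kidney, state normal) and number 2 of the 23 samples of the series. They were set against 2 liver and 2 lymph node samples, also labelled normal. The other samples of the series are osteosarcomas and osteosarcoma cell lines. All 6 organ samples were tissue from research-colony dogs, flash-frozen as sections, and no treatment of these dogs is named. Each organ type was represented by 2 organs described as biological replicates. The sources used here do not give the age, sex or breed of the dogs, or whether organs with the same number came from 1 dog. The p-values therefore cover the spread over these samples, whatever its source. A piece of frozen kidney holds cortex and medulla in proportions that the labels do not give. In such bulk tissue, fewer cells of a type and less RNA per cell cannot be told apart.

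The kidney filters blood in the glomeruli and then recovers or secretes solutes along the tubule of each nephron. The proximal tubule takes back sugars, amino acids, phosphate, bicarbonate and filtered protein through a brush border, secretes organic ions, and makes glucose. The thick ascending limb and the distal convoluted tubule recover salt, and the collecting duct adjusts water, potassium and acid through principal and intercalated cells. Genes were therefore described by nephron function, in 15 lists that together held 377 genes, of which 163 were measured under their own symbol.

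Values are log2 expression values of probe sets, sets of short probes that read a transcript together and in some cases match several. They ran from 2.52 to 14.2 over the 23 arrays, and the median of the 6 organ arrays lay between 4.84 and 4.87. Of 23836 probe sets tested, 10549 carried 1 gene symbol, which gave 6540 genes. Where a gene had several probe sets, it is given by the one whose mean over the 23 samples was highest. An index of lost 5′ signal, taken from the control probe sets for actin and Gapdh as their 3′ value less their 5′ value, was 6.45 in kidney 1 and 0.63 in kidney 2. It was 5.96 and 0.72 in liver 1 and 2, and 5.45 and 0.08 in lymph node 1 and 2, so replicate 1 of every organ had low 5′ signal. The contribution of 5′ signal to any result cannot be told apart from that of the replicate number.

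The labelled tissue was checked against 4 kidney markers. CUBN, cubilin, the receptor that takes filtered albumin and vitamin B12 carriers into proximal tubule cells, was at 10.23 and 12.05 in kidney, 4.71 and 4.30 in liver, and 4.17 and 3.88 in lymph node. KLK1, tissue kallikrein, a kinin-releasing protease secreted by the distal nephron, was at 9.29 and 10.89 in kidney and between 3.57 and 3.87 in the other 4 samples. SLC5A12, a sodium-coupled lactate transporter of the proximal tubule, was at 10.19 and 10.61 in kidney and at most 4.34 elsewhere. All 3 separated both kidney samples from all others by more than 5 log2 units. UMOD, uromodulin, the most abundant protein of urine and a product of the thick ascending limb, behaved differently by probe set. The probe set chosen for it was at 6.42 and 6.41 in kidney against 5.76 to 6.33 elsewhere, and did not pass (0.39 ± 0.16, SE; adjusted p = 0.331 in limma). Its other probe set was at 13.09 and 13.03 in kidney against 4.59 to 5.34 elsewhere, a difference of 8.15 ± 0.17 (adjusted p = 6.98e-04). By that probe set UMOD also marked both kidney samples.

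Which genes set kidney apart was asked by 3 contrasts, kidney minus liver, kidney minus lymph node and kidney minus the mean of both, tested in limma at an adjusted p under 0.01. A gene is called above both organs when it passed against liver and against lymph node in that direction. Of 6540 genes, 46 (0.703%) were above both organs and 6 (0.0917%) were below both. Against liver 62 genes (0.948%) were higher in kidney and 96 (1.47%) were lower. Against lymph node 146 (2.23%) were higher and 78 (1.19%) were lower. Against the mean of both, 85 (1.3%) were higher and 65 (0.994%) were lower. All 46 genes above both organs also passed against the mean, with differences of 1.87 to 6.88. Both kidney samples exceeded all other samples in 777 genes (11.9%), most of which did not pass, and lay below all others in 584 (8.93%). In all 46 called genes kidney was higher within the replicate 1 arrays and within the replicate 2 arrays. The genes were called on these same 6 samples, so this direction follows largely from the calls. Genes that just passed against the mean had adjusted p = 0.00966 and those that just missed had 0.0104.

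With the replicate number as a block, the fit that uses the pairing of same-numbered samples, limma called 94 genes higher than liver, 264 higher and 204 lower than lymph node, 150 higher and 124 lower than the mean, and 18 below both. The same 46 genes were again above both organs, among 65. The calls rested on few samples: without kidney 2, lymph node 1 or lymph node 2 limma called 0 genes above both organs, and 396, 358 and 313 genes passed both contrasts at an unadjusted p under 0.05. Without kidney 1, liver 1 or liver 2 it called 14, 10 and 4. The 46 genes kept their direction against both organs in each of these 6 fits. These fits reuse the samples that gave the calls, so the kept direction is no separate support.

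**Figure D1:**
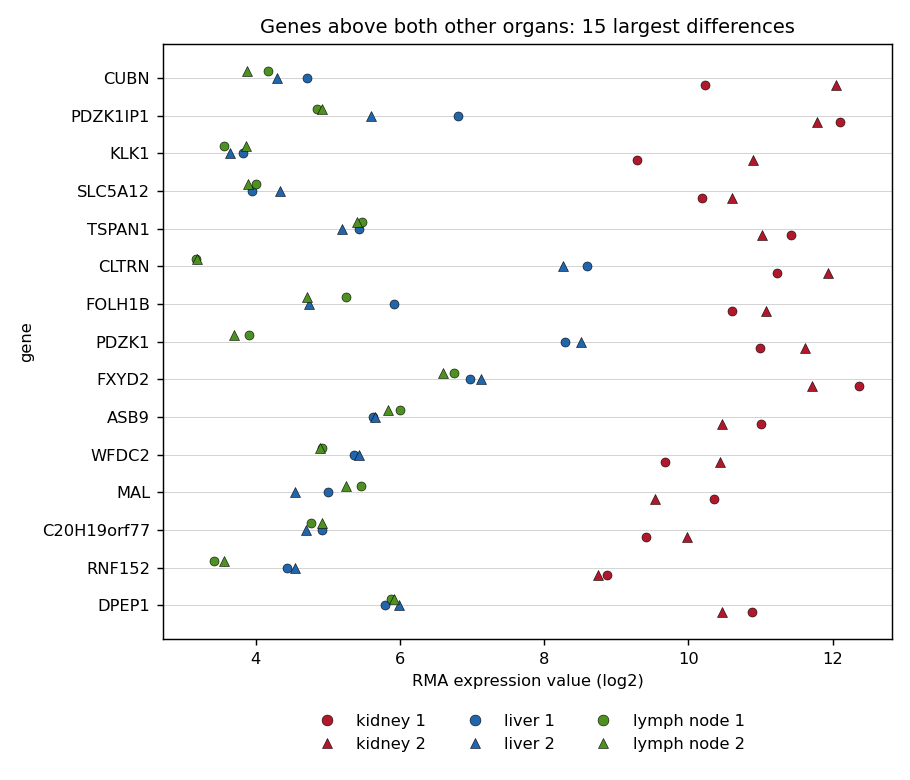
RMA expression value (log2, x axis) of the 15 genes above both organs with the largest difference (y axis) in each of the 6 samples, with circles for replicate 1 and triangles for replicate 2. Both kidney samples lie to the right of all liver and lymph node samples for every gene shown, and CLTRN and PDZK1 show liver values between those of kidney and lymph node.

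**Figure D2:**
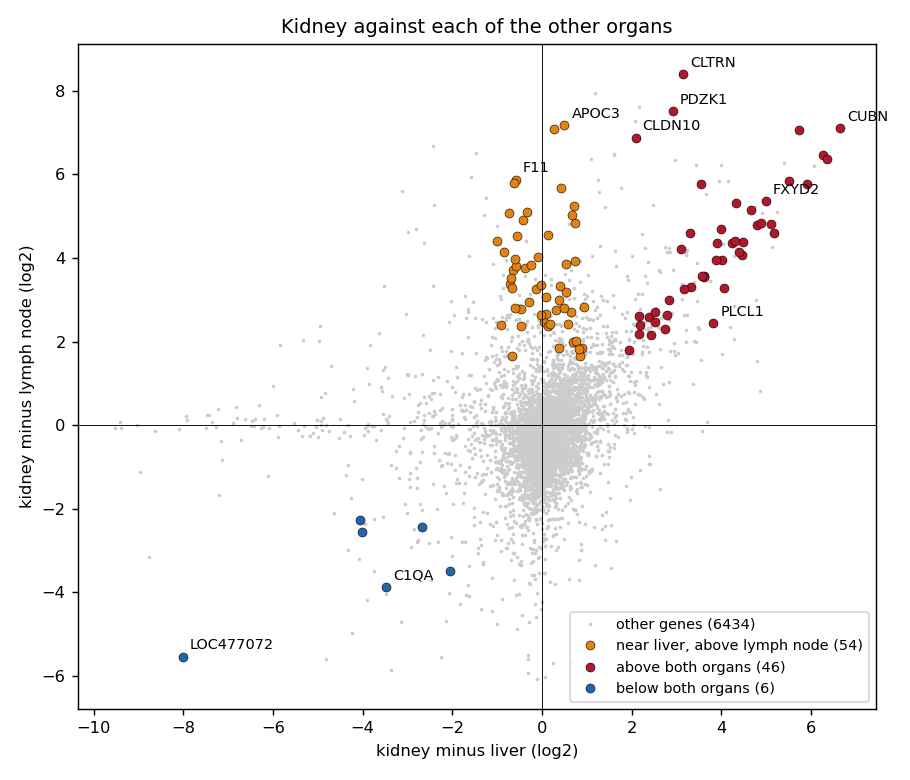
Kidney minus liver (x axis, log2) against kidney minus lymph node (y axis, log2) for 6540 genes. The 46 genes above both organs lie in the upper right, 54 genes near their liver level but above lymph node lie along the vertical axis, and the 6 genes below both lie in the lower left.

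Of the 46 genes above both organs, 19 were members of a nephron list, and the lists hold 163 of the 6540 genes. Over the 163 measured list genes, 31 were higher and 1 was lower than the mean of the other organs (3 lower with the replicate block). Over all 6540 genes 85 (1.3%) were higher, 65 (0.994%) were lower (124 with the replicate block) and 46 (0.703%) were above both. The counts of each list below stand beside these shares. The median difference was 0.60 over the list genes, against -0.05 over all genes. The median was 0.36 against liver and 1.10 against lymph node. Both kidney samples exceeded all others in 61 of the 163, against 777 (11.9%) of all 6540 genes. The nephron lists were chosen as kidney functions and with earlier results of these data known. Their direction is therefore part of how they were chosen.

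**Figure D3:**
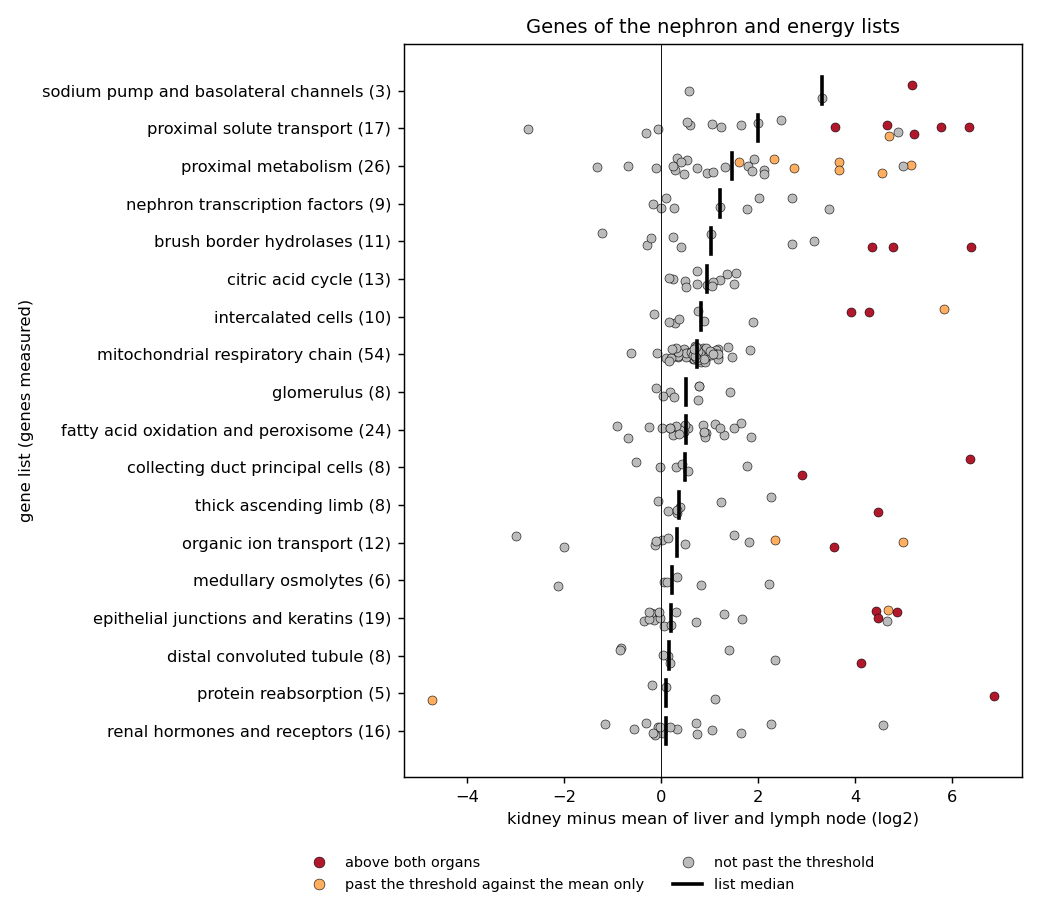
Kidney minus the mean of liver and lymph node (x axis, log2) for each measured gene of the nephron and energy lists (y axis, number of genes measured in brackets), with a bar at the list median. Genes above both organs (red) lie at 2.90 or more, and the list medians lie between 0.11 and 3.32.

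Genes for uptake of filtered solutes in the proximal tubule held the most genes above both organs of any nephron list. Of 17 measured, 6 were higher than the mean, 0 were lower and 5 were above both, with a median of 2.0. SLC5A12 led them at 6.36 ± 0.20 (SE; adjusted p = 8.07e-04). CLTRN, collectrin, the partner that brings neutral amino acid transporters to the brush border, was at 11.23 and 11.93 in kidney, 8.60 and 8.26 in liver, and 3.17 and 3.19 in lymph node. It differed by 5.77 ± 0.24 (adjusted p = 0.00122), with 3.15 against liver and 8.40 against lymph node. PDZK1, the scaffold that anchors brush border transporters, followed the same order of organs, with 11 and 11.62 in kidney, 8.29 and 8.51 in liver, and 3.90 and 3.70 in lymph node (difference 5.21 ± 0.22). SLC3A1, the heavy subunit of the cystine transporter, was at 10.70 and 10.49 in kidney, 6.83 and 7.24 in liver, and 4.96 and 4.71 in lymph node (4.66 ± 0.19, adjusted p = 0.00106). SLC13A2, a sodium-coupled citrate transporter, was at 9.96 and 9.99 in kidney and between 6.20 and 6.51 elsewhere (3.59 ± 0.15). Collectrin, PDZK1 and SLC3A1 were thus kidney genes with liver next, while SLC5A12 and SLC13A2 showed liver and lymph node at like levels.

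Other carriers of the list did not pass against both organs. AQP1, the water channel of the proximal tubule and thin limb, was at 12.03 and 11.72 in kidney and between 6.28 and 8.07 elsewhere. It passed against liver (5.13, adjusted p = 0.00751) and missed against lymph node (4.26, adjusted p = 0.011), and with the replicate block it was above both (adjusted p = 0.00117 and 0.00228). SLC1A1, a glutamate transporter, was at 11.22 and 11.28 in kidney, 10.28 and 7.90 in liver, and 3.62 and 3.64 in lymph node. It passed against lymph node alone. SLC4A4, the basolateral bicarbonate carrier, was at 5.30 in kidney 1 and 7.57 in kidney 2 against 4.91 to 5.39 elsewhere, a difference of 1.23 ± 0.65 (adjusted p = 0.494). SLC15A1, a peptide carrier, had its high values in liver (9.88 and 6.98) and was at 2.96 and 2.84 in kidney. Over all genes with a solute carrier symbol, a group formed after its values were seen, 5 of 123 were above both organs. Of all 6540 genes, 46 (0.703%) were. The median difference of the solute carriers was 0.16.

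Receptors and carriers of filtered protein gave 5 measured genes. CUBN, with the values above, had the largest difference of all 46 genes, 6.88 ± 0.53 (adjusted p = 0.00564), and its other probe set differed by 6.08. LRP2, megalin, the partner receptor of cubilin, was at 5.83 and 4.95 in kidney and between 5.23 and 5.33 elsewhere. Its difference was 0.11 ± 0.27 (adjusted p = 0.935), and its other probe sets differed by 0.29 and 0.59, and no probe set of LRP2 passed. GC, the plasma carrier of vitamin D that the tubule takes up but the liver makes, was at 3.10 and 2.99 in kidney, 12.39 and 12.48 in liver, and 3.08 and 3.12 in lymph node. It was the 1 gene of the nephron lists that was lower than the mean (-4.72 ± 0.12, adjusted p = 6.98e-04).

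Brush border proteins and hydrolases included 3 genes above both organs among 11 measured, 0 lower, with a median of 1.03. PDZK1IP1, a small membrane partner of PDZK1, was at 12.10 and 11.78 in kidney, 6.80 and 5.61 in liver, and 4.85 and 4.92 in lymph node (6.40 ± 0.36, adjusted p = 0.00238). DPEP1, renal dipeptidase, was at 10.88 and 10.47 in kidney and between 5.80 and 5.99 elsewhere (4.78 ± 0.17). CDHR2, a protocadherin of the links between microvilli, was at 9.12 and 9.34 in kidney, 5.17 and 5.29 in liver, and 4.50 and 4.56 in lymph node (4.35 ± 0.14). These 3 genes differed by under 0.5 between the kidney samples, and the peptidases DPP4 and MME by more. DPP4 was at 9.86 and 10.79 in kidney against 6.58 to 8.64 elsewhere, and MME, neprilysin, was at 6.98 and 10.33 against 4.96 to 7.29. MME of kidney 1 thus lay below lymph node 2, and neither peptidase passed (adjusted p = 0.0585 and 0.283). USH1C, a scaffold of the same microvillar links and a gene of no list, was above both at 2.61 ± 0.15.

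Transporters of organic ions gave 1 gene above both organs among 12, with a median of 0.32. SLC47A2, which exchanges protons for organic cations at the brush border, was at 6.83 and 7.61 in kidney and between 3.61 and 3.69 elsewhere (3.57 ± 0.25, adjusted p = 0.00403). SLC17A3, a phosphate and urate carrier, was at 8.59 and 9.27 in kidney and between 3.58 and 4.77 elsewhere. It passed against the mean (4.99 ± 0.40, adjusted p = 0.00627) and against lymph node. ABCC2, an efflux pump for conjugated anions, was at 8.27 and 8.36 in kidney and 8.28 and 8.07 in liver, but at 3.75 and 3.78 in lymph node. It passed against the mean (2.35 ± 0.13) and against lymph node, but not against liver. Its other probe sets differed from the mean by -0.18, 1.02 and 1.06 and did not pass. SLC22A3, an organic cation transporter, was lower in kidney (5.38 and 5.0) than in liver (9.28 and 8.60) and lymph node (7.80 and 7.05). Its difference of -2.99 ± 0.32 missed the threshold (adjusted p = 0.0135) and passed with the replicate block (adjusted p = 0.00196), where it was below both organs.

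Metabolic enzymes of the proximal tubule differed from lymph node far more than from liver. Of 26 measured, 7 were higher than the mean and 0 lower, 11 were higher than lymph node, and 0 were above both. Against liver 0 were higher and 1 was lower. Over all genes 146 (2.23%) were higher than lymph node, 62 (0.948%) were higher than liver and 96 (1.47%) were lower than liver. With the replicate block 3 of the 26 were lower than liver, against 135 of 6540 genes. The median was 3.06 against lymph node and 0.23 against liver. FBP1, the fructose bisphosphatase of glucose synthesis, was at 13.69 and 13.39 in kidney, 12.61 and 12.11 in liver, and 5.57 and 5.61 in lymph node (7.95 against lymph node, adjusted p = 9.69e-04; 1.18 against liver, adjusted p = 0.0769). DPYS, which breaks down pyrimidines, AGXT2, an aminotransferase, and HAO2, a peroxisomal oxidase, had the same form, with 7.08, 3.81 and 3.92 against lymph node and 0.26, -0.59 and 0.74 against liver. DDC, which makes dopamine in the tubule, was at 8.54 and 8.40 in kidney, 7.13 and 6.49 in liver, and 4.79 and 4.53 in lymph node.

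In GLYAT, GATM and CRYL1, enzymes of the same list, both kidneys exceeded all other samples by more than 2 log2 units. GLYAT, a glycine acyltransferase of detoxification, was at 9.73 and 11.10 in kidney and between 4.92 and 5.54 elsewhere (5.17 ± 0.44, adjusted p = 0.00704). It passed against lymph node (5.10) and just missed against liver (5.23, adjusted p = 0.0102). GATM, the first enzyme of creatine synthesis, was at 7.13 and 9.44 in kidney and between 3.17 and 3.45 elsewhere, and did not pass (4.99 ± 0.65, adjusted p = 0.0227). CRYL1, of glucuronate breakdown, was at 10.16 and 10.59 in kidney and between 6.27 and 7.41 elsewhere (3.66 ± 0.34, adjusted p = 0.00934). In the other direction BHMT, which remethylates homocysteine, was at 11.11 and 9.25 in kidney, 12.66 and 12.58 in liver, and 3.67 and 3.33 in lymph node, so kidney lay between both organs. The urea cycle enzyme ASS1 was likewise between, at 9.39 and 10.34 in kidney against 12.73 and 12.63 in liver and 5.13 and 5.23 in lymph node.

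Sharing with liver was described over all genes by those that passed against lymph node and differed from liver by under 1 log2 unit, which gave 54 genes. The 8 largest were APOC3, an apolipoprotein of triglyceride-rich particles (7.18 against lymph node), DPYS (7.08), the coagulation factor F11 (5.88), the retinal dehydrogenase ALDH1A1 (5.80), C21H11orf54 (5.67), the pantetheinase VNN1 (5.25), the hydroxylysine kinase HYKK (5.10) and the metallothionein MT1E (5.07). APOC3 was at 11.29 and 12.08 in kidney, 11.78 and 10.60 in liver, and 4.61 and 4.42 in lymph node. F11 was at 10.05 and 10.18 in kidney, 10.68 and 10.72 in liver, and 4.49 and 3.98 in lymph node. Both are textbook liver products that stood at liver levels in kidney. Of 25 in the hepatocyte list, 14 were lower in kidney than in liver, 0 were higher, and 1, APOC3, was higher than in lymph node. Over all genes 96 (1.47%) were lower in kidney than in liver. Albumin, ALB, was at 3.75 and 3.88 in kidney, 13.22 in both liver samples, and 4.12 and 3.37 in lymph node, and fibrinogen gamma, FGG, was at 3.04 and 3.11 in kidney, near the lower end of the scale. CPS1, of the urea cycle, did not pass against liver by the probe set used (-0.29, adjusted p = 0.723), which was at 4.88 and 5.03 in liver, and its other probe set differed by -5.81 (adjusted p = 0.0441). APOA2, an apolipoprotein, was lower in kidney than in liver by both of its probe sets (-3.41 and -2.96), and by the one not used it was at 10.14 and 10.04 in kidney against 3.67 and 3.46 in lymph node (6.53, adjusted p = 7.00e-04).

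In the thick ascending limb list 1 of 8 genes was above both organs by the probe sets used, with a median of 0.36. CLDN10, a claudin that forms sodium-selective pores between tubule cells, was at 11.20 and 10.97 in kidney, 8.85 and 9.15 in liver, and 4.30 and 4.12 in lymph node (4.48 ± 0.17, adjusted p = 9.83e-04). EGF, a growth factor made by the distal nephron, was at 4.23 in kidney 1 and 7.63 in kidney 2 against 3.48 to 3.85 elsewhere, which did not pass (2.28 ± 0.95, adjusted p = 0.346). KNG1, kininogen, the substrate of kallikrein, was at 9.24 and 8.51 in kidney, 12.13 and 11.87 in liver, and 3.42 and 3.15 in lymph node. It was lower than in liver (-3.12, adjusted p = 0.00924) and higher than in lymph node (5.59, adjusted p = 0.00231).

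In the distal convoluted tubule list 1 of 8 genes was above both, with a median of 0.16. SLC12A3, the thiazide-sensitive sodium chloride cotransporter, was at 11.09 and 10.63 in kidney and between 6.42 and 7.04 elsewhere (4.13 ± 0.18, adjusted p = 0.00132), and its other probe sets differed by 1.28 and 5.29. WNK4, a kinase that regulates this cotransporter, was at 8.59 in kidney 1 and 6.56 in kidney 2 against 5.08 to 5.40 elsewhere (2.35 ± 0.58, adjusted p = 0.114). CALB1, the calcium-binding calbindin, was at 3.85 and 5.52 against 3.13 to 3.50. Both genes exceeded all other samples in both kidneys without passing.

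Genes of the collecting duct were described by a principal cell list and an intercalated cell list. Among 8 genes of the principal cell list 2 were above both, KLK1 and RHCG, with a list median of 0.50. Both are described here by wider parts of the distal nephron than principal cells. The other members did not pass against the mean, from TFCP2L1 (1.78), SGK1 (0.57), SCNN1A (0.43) and NR3C2 (0.32) to KCNMA1 (-0.02) and TMEM45B (-0.52). AQP2, AQP3 and AVPR2 were not measured under their own symbol. KLK1 had a difference of 6.36 ± 0.47 (adjusted p = 0.0048). RHCG, an ammonia channel of the connecting tubule and collecting duct, was at 7.45 and 7.92 in kidney and between 4.59 and 4.91 elsewhere (2.90 ± 0.18, adjusted p = 0.00317). Among 10 intercalated cell genes 2 were above both and 3 were higher than the mean, with a median of 0.82. ATP6V1C2 and ATP6V0D2, isoforms of proton pump subunits found in acid-secreting cells, were at 9.38 and 8.86 and at 7.09 and 7.65 in kidney. Elsewhere they were at 4.71 to 4.87 and at 3.35 to 3.58, which gave differences of 4.30 ± 0.19 and 3.92 ± 0.20. CA2, the carbonic anhydrase of the cytosol, was at 11.18 and 11.92 in kidney, 6.97 and 5.34 in liver, and 5.57 and 5.0 in lymph node. It passed against lymph node (6.26) and the mean (5.83 ± 0.53) but not against liver (5.39, adjusted p = 0.017). Among all 16 genes with a proton pump subunit symbol, a group formed after its values were seen, these 2 isoforms were the ones above both. Of all 6540 genes, 46 (0.703%) were. The median difference of the 16 was 0.80.

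FXYD2, the gamma subunit of the sodium pump that drives transport along the nephron, was at 12.37 and 11.71 in kidney and between 6.60 and 7.13 elsewhere (5.18 ± 0.22, adjusted p = 0.00126). Its other 3 probe sets differed by 0.04 to 1.0. The beta subunit ATP1B1 was at 9.54 and 11.24 in kidney and between 6.56 and 7.73 elsewhere (3.32 ± 0.51, adjusted p = 0.0342). It lay above all other samples in both kidneys but did not pass.

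Genes of the glomerulus did not set kidney apart at this threshold. Of 8 measured, limma called 0 in either direction against any organ, with a median of 0.52, and 2 were higher and 0 lower than the mean at an unadjusted p under 0.05, against 837 (12.8%) higher and 821 (12.6%) lower of all 6540 genes. NPHS1, nephrin of the podocyte slit diaphragm, was at 4.52 and 5.36 in kidney and between 3.44 and 3.59 elsewhere (1.42 ± 0.26, adjusted p = 0.053). PODXL, podocalyxin, was at 3.67 and 4.88 against 3.39 to 3.56 (0.78 ± 0.36). Both kidney samples exceeded the other 4 for these genes, with kidney 2 the higher in each.

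Hormones and receptors of the kidney gave 0 calls in limma against the mean among 16 genes, with a median of 0.11. At an unadjusted p under 0.05, 4 of the 16 were higher, against 12.8% of all genes. With the replicate block 1 was higher than the mean, 2 were higher than liver, and 1 was higher and 1 lower than lymph node. For all 6540 genes the block gave 150, 94, 264 and 204 for these counts. PTH1R, the receptor for parathyroid hormone, was at 8.76 and 10.71 in kidney, 5.77 and 6.40 in liver, and 4.29 and 4.15 in lymph node (4.58 ± 0.58, adjusted p = 0.0208), and passed against the mean with the replicate block (adjusted p = 0.00939). EPO, erythropoietin, lay at 4.59 and 4.49 in kidney within its range of 4.42 to 4.90 elsewhere. Among 9 transcription factors 0 passed against the mean (4 higher at an unadjusted p under 0.05, against 12.8% of all genes) and 2 passed against lymph node, TFAP2B, which acts in the distal nephron (2.82), and NR1H4, the bile acid receptor (4.04), which was highest in liver. Against lymph node, 146 (2.23%) of all genes were higher. MECOM was at 9.52 and 8.30 in kidney, 5.91 and 6.35 in liver, and 5.10 and 4.43 in lymph node (3.46 ± 0.42, adjusted p = 0.0188), and TFEC differed by 2.70 ± 0.38 (adjusted p = 0.0282). All 9 had a median of 1.21.

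Genes for osmolytes and stress of the medulla gave 0 calls in limma among 6 (1 higher and 1 lower at an unadjusted p under 0.05, against 12.8% and 12.6% of all genes), with a median of 0.23. CRYAB, a small chaperone, was at 9.57 and 8.94 in kidney and between 6.55 and 7.41 elsewhere (2.22 ± 0.30, adjusted p = 0.024). With the replicate block it was above both organs (adjusted p = 0.00467 and 0.00318). The taurine transporter SLC6A6 was at 8.34 and 9.89 against 8.17 to 8.46. Clusterin, CLU, had the opposite direction, with 9.53 and 10.76 in kidney against 11.18 to 13.30 elsewhere (-2.13 ± 0.40, adjusted p = 0.0573).

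Of 19 genes for epithelial junctions and keratins 3 were above both and 4 were higher than the mean, with a median of 0.21. MAL, a proteolipid of apical membrane transport, was at 10.35 and 9.54 in kidney and between 4.55 and 5.46 elsewhere (4.88 ± 0.29, adjusted p = 0.00258). CDH16, the kidney-specific cadherin, was at 9.64 and 9.13 in kidney and between 4.66 and 5.18 elsewhere (4.44 ± 0.25, adjusted p = 0.00231). The third was CLDN10. EPCAM, a general epithelial adhesion protein, was at 11.03 and 10.96 in kidney, 9.32 and 8.50 in liver, and 3.63 and 3.80 in lymph node, and passed against lymph node and the mean but not against liver (2.08, adjusted p = 0.0352).

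Genes of energy metabolism lay higher in kidney as list medians, with few calls. Of 54 genes of the mitochondrial respiratory chain, limma called 0 against the mean (32 higher and 0 lower at an unadjusted p under 0.05, against 12.8% and 12.6% of all genes) and 1 against lymph node. Against lymph node, 146 (2.23%) of all genes were higher. With the replicate block limma called 1 of the 54 higher than the mean and 8 higher than lymph node, against 150 and 264 of all 6540 genes. Both kidney samples exceeded all others in 29 of the 54, against 777 of 6540 genes. Their median difference was 0.73, with 0.46 against liver and 0.99 against lymph node, and it was 0.76 within the replicate 1 arrays and 0.75 within the replicate 2 arrays. ATP5MC1, a subunit of the ATP synthase ring, was at 11.91 and 12.16 in kidney, 10.72 and 11.07 in liver, and 9.31 and 9.73 in lymph node (1.83 ± 0.20, adjusted p = 0.015), and passed with the replicate block (adjusted p = 0.00412). UQCR11, of complex III, was at 11.36 and 10.89 in kidney, 10.35 and 10.09 in liver, and 9.06 and 9.15 in lymph node. The 13 genes of the citric acid cycle had a median of 0.96 and 0 calls in limma against the mean (6 higher at an unadjusted p under 0.05, against 12.8% of all genes). IDH3A, a subunit of isocitrate dehydrogenase, was at 9.11 and 8.89 in kidney and between 7.01 and 7.81 elsewhere (1.55 ± 0.17, adjusted p = 0.0148), and SUCLG2, of succinyl-CoA ligase, differed by 1.51 ± 0.27. Both passed with the replicate block (adjusted p = 0.00607 and 0.00669), the 2 calls of the list against the mean in that fit.

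Fatty acid oxidation and peroxisome genes lay near liver and above lymph node. Over 24 genes the median was -0.11 against liver and 1.29 against lymph node, and 0 passed against the mean in limma (7 higher and 1 lower at an unadjusted p under 0.05, against 12.8% and 12.6% of all genes). ACADM, a medium-chain acyl-CoA dehydrogenase, was at 12.29 and 12.35 in kidney, 11.80 and 11.85 in liver, and 9.71 and 9.32 in lymph node. Its difference of 1.65 ± 0.16 missed the threshold (adjusted p = 0.0104), and it passed with the replicate block (adjusted p = 0.00906). ECHS1, of the next step, was at 9.86 and 11.48 in kidney, 10.30 and 10.62 in liver, and 7.17 and 7.20 in lymph node.

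The remaining genes above both organs lay outside the nephron lists. Those among the 15 largest were TSPAN1, a tetraspanin (5.84 ± 0.17), FOLH1B, a relative of the folate hydrolase (5.68 ± 0.40), ASB9, an adaptor of ubiquitin ligases (4.96 ± 0.20), WFDC2, a secreted protein with protease inhibitor domains (4.90 ± 0.24), C20H19orf77 (4.86 ± 0.21) and RNF152, a lysosomal ubiquitin ligase (4.82 ± 0.13). TSPAN1 was at 11.42 and 11.02 in kidney and between 5.20 and 5.47 elsewhere. RNF152 was at 8.87 and 8.75 in kidney, 4.44 and 4.55 in liver, and 3.42 and 3.56 in lymph node. WFDC2 was at 9.67 and 10.44 in kidney and between 4.90 and 5.43 elsewhere. Each of these genes had both kidneys far above all other samples. The annotation ties FOLH1B to 4 probe sets, and the other 3 differed by -0.04 to 2.50, so its value rests on 1 probe set.

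Genes below both organs numbered 6, of which C1QA is also in the macrophage list. LOC477072 was at 4.89 and 4.88 in kidney, 12.96 and 12.83 in liver, and 11.08 and 9.78 in lymph node (-6.78 ± 0.38, adjusted p = 0.00232). C1QA, a chain of complement C1q made by macrophages, was at 6.34 and 6.18 in kidney, 9.84 and 9.64 in liver, and 10.37 and 9.88 in lymph node (-3.67 ± 0.19). The others were GSTO1, a glutathione transferase (-3.28 ± 0.20), the complement protease C1S (-3.16 ± 0.15), the nuclease DNASE1L3 (-2.77 ± 0.14) and TTC39C (-2.55 ± 0.21). Without any single sample limma called 0 genes below both organs, and between 115 and 172 genes passed at an unadjusted p under 0.05. Of 13 macrophage genes 1, C1QA, was lower than the mean, against 65 (0.994%) of all genes. With the replicate block 5 were lower, against 124 of 6540. In 9 of the 13 both kidney samples lay below all others, against 584 (8.93%) of all genes. Their median difference was -2.79, and their summed signal on a linear scale was 938 and 838 in kidney, 8360 and 4940 in liver, and 9500 and 6280 in lymph node. The part of macrophage content in the genes below both was not tested.

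Markers of other cell types were described by the same calls. Of 7 lymphocyte genes 1, CD3D of the T cell receptor complex, was lower than the mean, with 5.12 and 4.83 in kidney, 5.30 in both livers, and 10.74 and 11.07 in lymph node. Lower than the mean were 65 (0.994%) of all genes. At an unadjusted p under 0.05, 2 of the 7 were lower and 0 higher, against 12.6% and 12.8% of all genes. The summed lymphocyte signal was 346 and 293 in kidney, near the 379 of both livers. Limma called 0 of 8 endothelial, 0 of 6 smooth muscle, 0 of 3 adrenal and 0 of 4 fat cell genes in either direction, and at an unadjusted p under 0.05 1 endothelial gene was higher and 1 adrenal gene lower, against 12.8% and 12.6% of all genes. Their summed signal in kidney was 2250 and 1810, 3200 and 2120, 93.0 and 93.6, and 83.5 and 89.7 in that order. The adrenal genes summed to 336 and 219 in liver. Lists this short would hold few calls at the shares over all genes, 1.3% higher and 0.994% lower than the mean. The part of these cell types in the kidney profile was not tested.

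The call of several nephron genes differed between their probe sets. For 5 list genes that were not above both organs another probe set was: UMOD, SLC34A1, SLC22A6, SLC15A2 and ATP12A. They were looked for after the values of UMOD were seen. SLC34A1, the sodium phosphate cotransporter of the proximal tubule, was at 6.19 and 9.40 in kidney by the probe set used (1.65 ± 0.90, adjusted p = 0.52), while another probe set was at 11.78 and 11.86 in kidney and between 3.92 and 4.30 elsewhere (7.76 ± 0.16, adjusted p = 6.98e-04). SLC22A6, the organic anion transporter that takes up drugs from blood, differed by 0.50 ± 0.47 by the one used and by 5.16 ± 0.17 by the other (8.60 and 8.66 in kidney, 3.29 to 3.75 elsewhere). SLC15A2, a peptide transporter, differed by 2.47 ± 0.72 and by 3.79 ± 0.23, and ATP12A, a proton pump, by 0.30 ± 0.12 and by 1.67 ± 0.13. The enzymes of glucose synthesis PCK1 and G6PC1 had the same division. By their other probe sets PCK1 was at 11.13 and 10.47 in kidney, 10.74 and 11.76 in liver, and 3.66 and 3.18 in lymph node, and G6PC1 was at 10.10 and 10.54, 10.92 and 11.03, and 3.64 and 3.47. Both then lay at liver level and above lymph node, by 7.38 and 6.77 (adjusted p = 0.00301 and 0.00101).

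**Figure D4:**
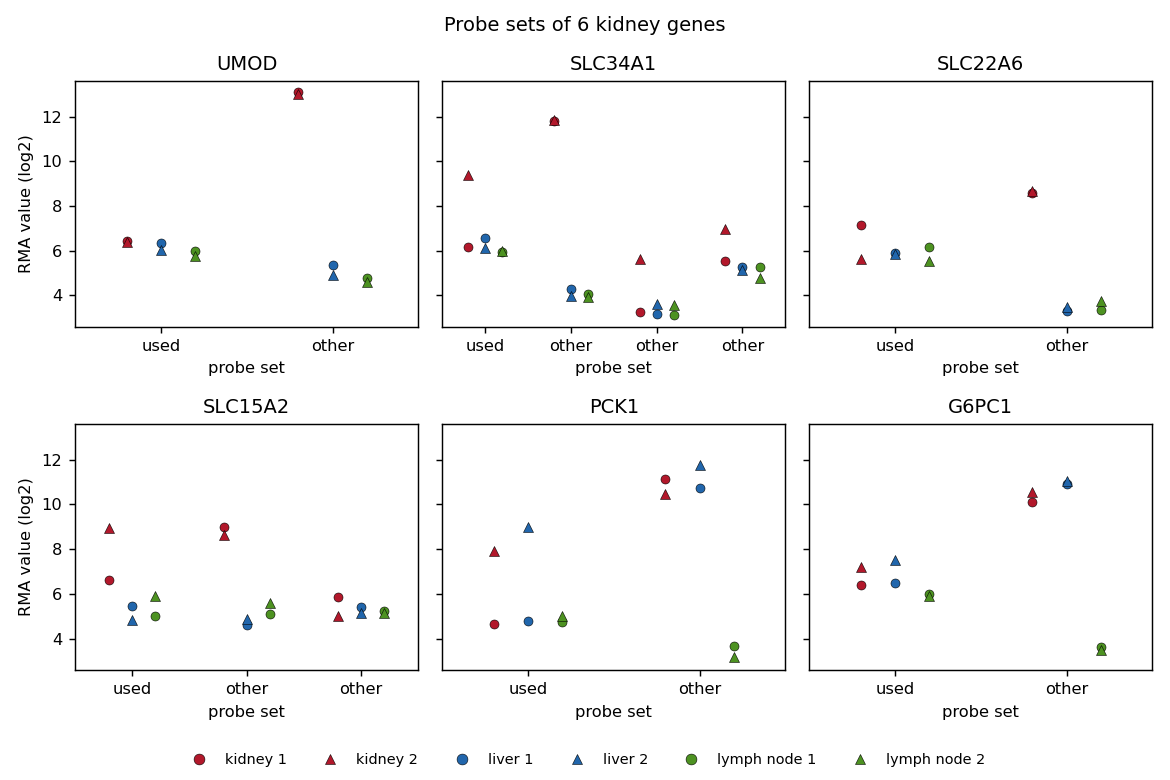
RMA value (log2, y axis) of each probe set of UMOD, SLC34A1, SLC22A6, SLC15A2, PCK1 and G6PC1 in the 6 samples (colour for organ, circle for replicate 1, triangle for replicate 2). The probe set used for each gene shows little or uneven difference, while 1 other shows both kidneys well above lymph node, and for PCK1 and G6PC1 both livers too.

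The 2 kidney samples differed by more than 2 log2 units in 244 genes that were higher in kidney 2 and 21 that were higher in kidney 1. The same counts were 106 and 21 for liver 2 and liver 1, and 123 and 45 for lymph node 2 and lymph node 1. Among the 163 nephron list genes 15 were higher in kidney 2 by that margin and 1 was lower, while of the 46 genes above both organs 0 were. The 46 calls use the spread between these samples. A small difference between the kidneys is thus part of how these genes were called. CYP4A11, a fatty acid hydroxylase, was at 6.73 in kidney 1 and 11.43 in kidney 2, and at 7.04 in liver 1 and 10.04 in liver 2. SLC16A4, a carrier of the monocarboxylate family, was at 5.02 and 9.39 in kidney and 5.51 and 7.33 in liver. In both genes replicate 2 was the higher in both organs. EGF, SLC34A1, MME and TFCP2L1, a transcription factor of the collecting duct, were higher in kidney 2 by 3.40, 3.21, 3.35 and 3.05, with differences between the livers of 0.21, -0.45, 0.52 and -0.02. For SLC34A1 this holds for the probe set used. By its probe set that was above both organs, described earlier, the 2 kidneys were at like levels. WNK4 and BHMT were lower in kidney 2, by -2.03 and -1.86. By list, the largest median difference between the kidneys was 0.95, in the principal cell list, against 0.10 between the livers and -0.03 over all genes in kidney. The 5′ index differed between the samples of every organ, and its part in these differences was not tested.

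**Figure D5:**
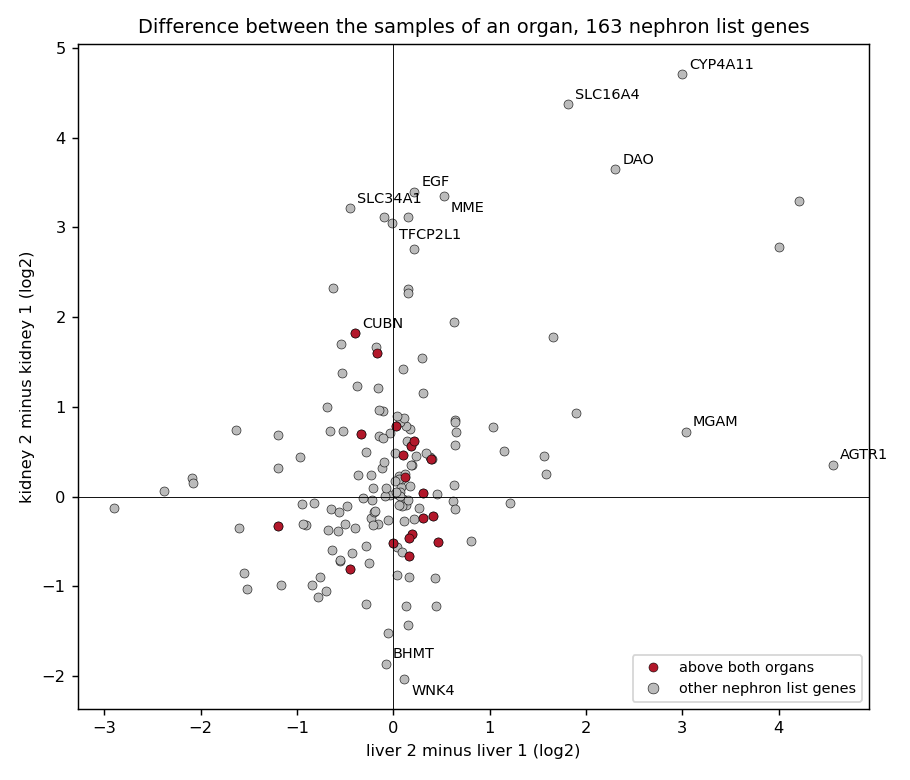
Kidney 2 minus kidney 1 (y axis, log2) against liver 2 minus liver 1 (x axis, log2) for 163 nephron list genes, with genes above both organs in red. CYP4A11 and SLC16A4 are high on both axes, WNK4 and BHMT are the lowest on the y axis, and the red points lie between -0.81 and 1.82 on it. The red genes were called by tests that use the spread between these samples, which favors small differences.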

How the data were processed

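The deposited values are log2 expression values that the authors made from Affymetrix Canine Genome version 1.0 arrays by robust multi-array averaging (RMA, with the affy package named in the submitters' processing notes, versions not given in the sources used here). RMA corrects background, quantile-normalizes all arrays and combines the probes of a set, so it hides changes in total RNA and compresses differences of dim probe sets. Samples were labelled by a one-cycle protocol and hybridized in 1 batched group. Arrays give no counts, so precision is limited by how many there were.

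After removal of 77 control probe sets from 23913, 23836 entered a limma fit (version 3.58.1, under R 4.3.3) of the 6 organ samples in 3 groups, with moderated two-sided tests by lmFit and eBayes. P-values were adjusted by Benjamini and Hochberg's method over the whole array, and 0.01 was the threshold. The study also used limma, with 0.01 in its results and a false discovery rate of 0.05 in its methods. An exact permutation test of 2 against 4 samples cannot go below p = 0.0667. Differences are log2 values with standard errors. The platform annotation named 10549 probe sets by 1 symbol, 138 by several and 13149 by none.

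Same-numbered samples deviated from their organ means together (correlations of 0.607 between kidney and liver, 0.596 between kidney and node, and 0.530 between liver and node, over 23836 probe sets that are not independent). On this ground, with the labels' numbers, replicate number was treated as a pairing in the fit with the replicate block. The main fit, which gave the counts and adjusted p-values wherever no other fit is named, held no pairing. Low 5′ signal fell on replicate 1 throughout.

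The gene lists and members were chosen with earlier results of these data known. Genes named were the 15 largest differences among those above both organs, up to 10 below both, up to 4 members above both per list or else the 2 largest, the 4 markers, 8 genes shared with liver, and the list members with the largest differences between the kidneys. Others were named after their values were seen. Signal sums are of unlogged values. Alternatives were other fits, normalizations, filters, thresholds and probe set rules, and leaving out each sample. Promoter sequences were not analysed here.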

Additional observations from a re-analysis of the deposited data

Results flagged for a closer look

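SLC16A4, a member of the organic ion transport list, differed between the replicate numbers. Kidney minus the mean of liver and lymph node was -0.18 in the replicate 1 arrays and 3.21 in the replicate 2 arrays, 3.395 apart, with kidney 1 and kidney 2 at 5.02 and 9.39. This difference was not tested, and replicate number and 5′ signal cannot be told apart in these samples.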

How the results depend on the processing

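With the replicate number as a block 150 genes were higher and 124 lower than the mean of liver and lymph node, 94 were higher than liver, 264 higher and 204 lower than lymph node, and 18 below both; the block left the counts above both and lower than liver within 1.5 times. The 5′ index as a covariate, which splits the arrays alike, gave 160, 131, 99, 265, 222 and 20 for the same counts. A fit of all 23 samples in 5 groups gave 238 and 158, 141 higher and 186 lower than liver, 331 and 202 against lymph node, and 107 above both, 33 of them in nephron lists; of the 46 genes 36 kept the call. An adjusted p under 0.05 gave 301 and 250, 162 and 196, 447 and 446, 116 above both and 34 below. The causes were not tested. Leaving out 1 sample, in fits with fewer samples where a lone sample is assumed to vary like the other groups, gave 0 to 19 higher and 0 to 12 lower than the mean, 4 to 29 and 38 to 58 against liver, 0 to 33 and 0 to 10 against lymph node, 0 to 14 above both, 0 to 7 in nephron lists and 0 below both. Without kidney 2, lymph node 1 or lymph node 2, limma's counts against the mean were 0 and 0, with 693 to 816 higher and 703 to 794 lower at an unadjusted p under 0.05. Without kidney 2, CYP4A11 and SLC16A4 reversed to -0.55 and -0.67, and without kidney 1 they were 4.16 and 3.70. Quantile normalization of the 6 arrays, a trended robust prior, removal of dim probe sets, and the mean over the probe sets of a gene kept all these counts within 1.5 times, as did choosing probe sets by their mean on the 6 organ arrays, an alternative chosen after seeing the data, which gave 48 above both.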
